A study of Sus scrofa with 3 samples.

Results

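Toll-like receptors (TLRs) are the pattern recognition receptors of innate immunity, and the values analysed here are those of the 10 TLR genes, TLR1 to TLR10, in visceral adipose tissue. The genes were chosen by name among the genes classed as mRNA, and all 10 were present among the 22826 mRNA genes of the 34570 genes measured. The tissue was retroperitoneal fat of male Chinese Wuzhishan miniature pigs, 6 to 7 months old when obtained, which all ate an HFC diet, rich in fat and cholesterol, for 12 weeks. The intact male pigs (IM) had skin incisions only, the castrated male pigs (CM) were gonadectomized, and the castrated pigs with testosterone replacement (CMT) were also injected each week with testosterone propionate at 10 mg/kg body weight in corn oil. Labels put between 4 and 6 pigs in each group, and the RNA of a group was mixed in equal amounts and sequenced as 1 library. The methods of the study give the lower of these pig numbers. The design asks which genes differ when testosterone is removed and when it is given back. With 1 pooled library per group there was no replicate check, no test between conditions was possible, and every interval below covers counting error only.

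TLRs are membrane proteins whose leucine-rich repeats face the outside of the cell or the lumen of an endosome and whose TIR domain passes the signal on inside the cell. TLR1, TLR2, TLR4, TLR5, TLR6 and TLR10 are placed at the cell surface, where they sense lipopeptides, lipopolysaccharide and flagellin. TLR3, TLR7, TLR8 and TLR9 sense nucleic acids in endosomes. Most TLRs signal through the adaptor MYD88 to NF-kB, while TLR3 and part of the TLR4 signal use TICAM1 and lead to interferon. In adipose tissue TLRs are found on macrophages and other immune cells and also on adipocytes, and TLR4 is known there for its link with saturated fatty acids and inflammation.

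Expression was measured in UQRPKM, that is, reads per kilobase of gene scaled to the upper quartile of each library. Since UQRPKM is per length, levels of different receptors can be compared. Whole numbers of reads were recovered from these values. mRNA genes held 14844063 (IM), 13582288 (CM) and 13449107 (CMT) of these reads, and the 10 receptors held 1410, 1362 and 1528 of them. Where 3 values are given together, here and below, they follow the order IM, CM and CMT. For a gene of median length, 3 reads are worth 1.02, 1.07 and 1.04 UQRPKM. The median of the receptors was 20.6, 18.9 and 22.3 UQRPKM, above the median of all mRNA genes at 12.04, 12.08 and 12.03. All 10 receptors were above 0 in every library, and all but TLR10 reached 1 UQRPKM in every library.

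The marker genes of fat were abundant, as ADIPOQ had 74928 (IM), 69193 (CM) and 63873 UQRPKM (CMT). Genes of other tissues were abundant in single libraries. The 6 liver genes summed to 15.7 (IM), 6653 (CM) and 21.0 UQRPKM (CMT) and took 0.123% of the mRNA reads in CM, and the 8 skeletal muscle genes summed to 82.3, 68.3 and 6130 UQRPKM and took 0.0991% of the mRNA reads in CMT. The 5 mesothelial genes summed to 121, 205 and 495 UQRPKM. Summed levels of the 6 adipocyte genes were 122559, 116714 and 99367 UQRPKM, those of the 5 endothelial genes 8648, 7702 and 8315, and those of the 6 fibroblast genes 66056, 65651 and 67497.

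TLR9, the receptor for unmethylated CpG DNA, had the highest value of the family in each library, with 92.4 (IM), 99.3 (CM) and 106.6 UQRPKM (CMT) from 631, 646 and 713 reads. TLR4, the receptor for lipopolysaccharide, stood next with 68.7, 62.8 and 52.1 UQRPKM. TLR10, whose ligands are poorly known, was lowest with 0.938, 0.984 and 2.15 UQRPKM from 4, 4 and 9 reads. The counting intervals of TLR9 and TLR4 did not overlap in any library, and neither did those of TLR10 and the receptor next above it. In between, the order was less certain. From the highest down, TLR1, TLR2, TLR5, TLR3, TLR6 and TLR7 each overlapped the next in IM, and so did TLR3, TLR7, TLR5, TLR6 and TLR8 in CM. TLR1 and TLR2 could not be ordered in any library, and TLR4 and TLR2 could not be ordered in CMT at the recovered reads. The level of TLR9 has a limit of its own. In the RefSeq table of Sscrofa11.1, a later build than the one the reads were mapped to, TLR9 overlaps TWF2, the gene of the actin-binding protein twinfilin 2, and reads of the 2 genes cannot be told apart here. TWF2 was not analysed here, and its part in the TLR9 value was not tested. In the same table TLR7 and TLR8 overlap each other, and TLR10, TLR1 and TLR6 lie side by side. These last 3 are close paralogs, so reads that map to more than one of them make their values uncertain.

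**Figure D1:**
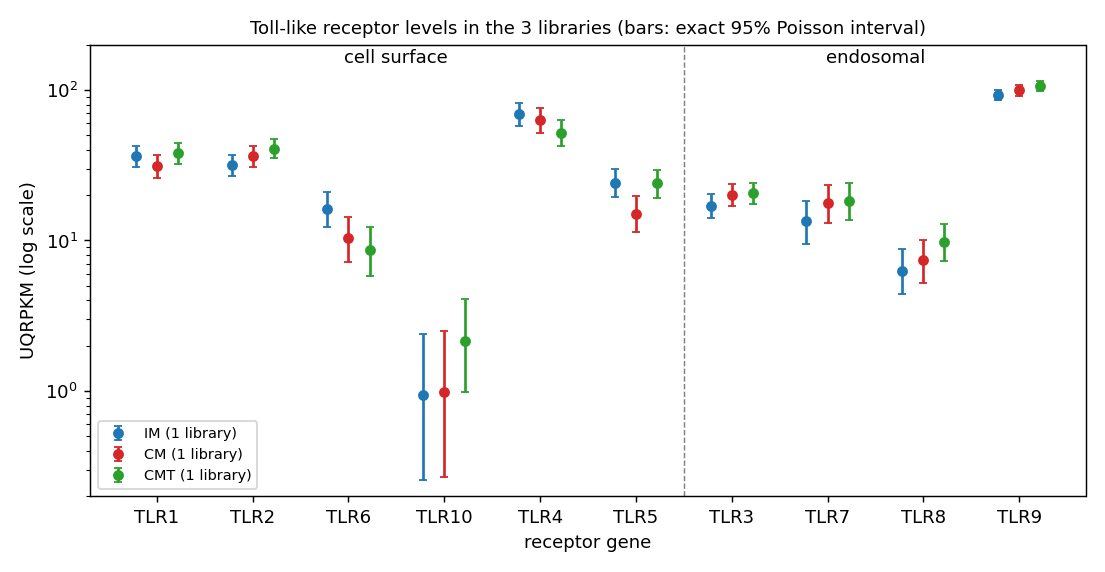
Level of each receptor gene (x axis) in UQRPKM on a log scale (y axis) in the IM, CM and CMT libraries, with exact 95% Poisson intervals of the reads as bars. TLR9 lies at the top with 92.4 to 106.6 UQRPKM and TLR10 at the bottom with 0.938 to 2.15, and TLR5 is lowest in CM while TLR6 is highest in IM.

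The first comparison, CM versus IM, addresses the removal of the testes. TLR5, the receptor for bacterial flagellin, and TLR6, the partner of TLR2 for diacylated lipopeptides, were lower in CM by more than 1.5-fold, and no receptor was higher by that much. A gene was called at a UQRPKM ratio of 1.5 or more, 0.58 on the log2 scale, with at least 1 UQRPKM in both libraries. By this rule 2 of the 9 receptors that reached 1 UQRPKM were called, against 18.8% of all mRNA genes tested, made up of 8.38% called higher and 10.4% called lower. The share of receptors called is thus near the background. Among mRNA genes with 100 to 1000 reads over IM and CM, the range of TLR5, 13.5% were called, and among those with fewer than 100 reads, the range of TLR6, 46.6% were. The median log2 ratio of the 9 receptors was 0.10, beside -0.06 over the mRNA genes tested. Intervals of 8 of the 10 receptors included 0.

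TLR5 had 24.3 (IM), 15.1 (CM) and 24.0 UQRPKM (CMT) from 93, 55 and 90 reads. CM was thus low, while IM and CMT lay next to each other. The log2 ratio was -0.69 (95% interval -1.20 to -0.19) in CM versus IM and 0.67 (0.17 to 1.18) in CMT versus CM. In CMT versus IM it was -0.02 (-0.45 to 0.42), and this sign turned under other scalings. Both differences share the CM library, so they are not independent of each other.

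TLR6 had 16.3 (IM), 10.3 (CM) and 8.60 UQRPKM (CMT) from 58, 35 and 30 reads. It was highest in IM, and its intervals in CM and CMT overlapped. The log2 ratio was -0.66 (-1.31 to -0.03) in CM versus IM and -0.26 (-1.02 to 0.48) in CMT versus CM. It was -0.92 (-1.61 to -0.26) when CMT was compared with IM. The last value, a level 1.89-fold lower in CMT than in IM, was the largest ratio among the receptors with at least 1 UQRPKM in both libraries.

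In CMT versus CM, which addresses testosterone replacement after castration, TLR5 was the only receptor called, and it was higher in CMT. This was 1 of 9 receptors, against 19.5% of all mRNA genes called in either direction with 9.53% called higher and 9.97% lower in CMT. Among mRNA genes with 100 to 1000 reads over CMT and CM, the range of TLR5, 14.1% were called. The median log2 ratio of the receptors was 0.10, beside -0.02 over all mRNA genes tested, and the interval of 9 of the 10 receptors included 0. TLR10 was 2.19-fold higher in CMT than in CM, but it rested on 9 and 4 reads, did not reach 1 UQRPKM in CM and had a log2 interval from -0.71 to 3.28. A difference of this size was not detectable at that depth.

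CMT versus IM compares castrated pigs under replacement with intact pigs. TLR6 was lower in CMT, and TLR8, an endosomal receptor for single-stranded RNA, was higher. These were 2 of 9 receptors, against 20.7% of all mRNA genes tested, made up of 8.81% called higher and 11.9% called lower in CMT. Among mRNA genes with fewer than 100 reads over CMT and IM, the range of TLR6 and TLR8, 47.6% were called. The median log2 ratio was 0.21, beside -0.08 over all mRNA genes tested. Intervals of TLR2, TLR4, TLR6 and TLR9 excluded 0, and of these TLR6 alone passed 1.5-fold. An exact binomial test on the reads, which compares the libraries and not the conditions, was passed beside the 1.5-fold limit by TLR5 where CM was compared with IM or with CMT and by TLR6 between CMT and IM, against 10.1%, 10.6% and 11.9% of all mRNA genes in the respective comparisons. For TLR8, with 6.32 (IM), 7.39 (CM) and 9.76 UQRPKM (CMT) from 35, 39 and 53 reads, the log2 ratio of 0.63 had an interval from -0.01 to 1.29.

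**Figure D2:**
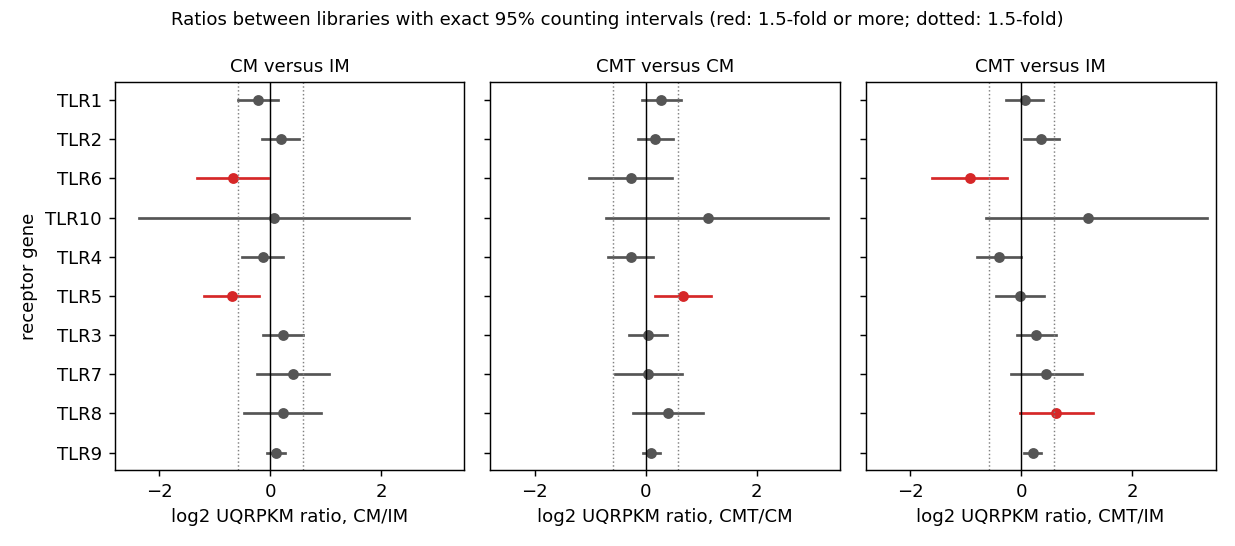
Log2 ratio of UQRPKM between libraries (x axis) for each receptor gene (y axis) in the 3 comparisons, with exact 95% counting intervals as lines and 1.5-fold as dotted lines. Called receptors are in red: TLR5 and TLR6 in CM versus IM, TLR5 in CMT versus CM, and TLR6 and TLR8 in CMT versus IM.

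Among the lipopeptide receptors, TLR2, which pairs with TLR1 or TLR6, had 31.6 (IM), 36.2 (CM) and 40.7 UQRPKM (CMT) from 145, 158 and 183 reads. Its log2 ratio was 0.19 (-0.14 to 0.53) in CM versus IM and 0.37 (0.04 to 0.69) in CMT versus IM. TLR1, the partner for triacylated lipopeptides, had 36.2, 31.2 and 37.9 UQRPKM from 150, 123 and 154 reads, and each of its intervals included 0. TLR2 was 0.874 times the level of TLR1 in IM (95% interval 0.691 to 1.11), 1.16 times in CM (0.911 to 1.48) and 1.07 times in CMT (0.862 to 1.34), so the level of TLR1 was not distinguishable from that of TLR2. Against TLR6, TLR2 was 1.94 times as high in IM (1.42 to 2.68), 3.51 times in CM (2.42 to 5.21) and 4.74 times in CMT (3.21 to 7.22). The intervals of IM and CMT did not overlap for this pair. TLR1 over TLR6 was 2.22, 3.02 and 4.41, and the intervals of IM and CMT overlapped slightly, as they ended at 3.06 and began at 2.97. Such ratios within a library do not depend on the scaling between libraries.

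**Figure D3:**
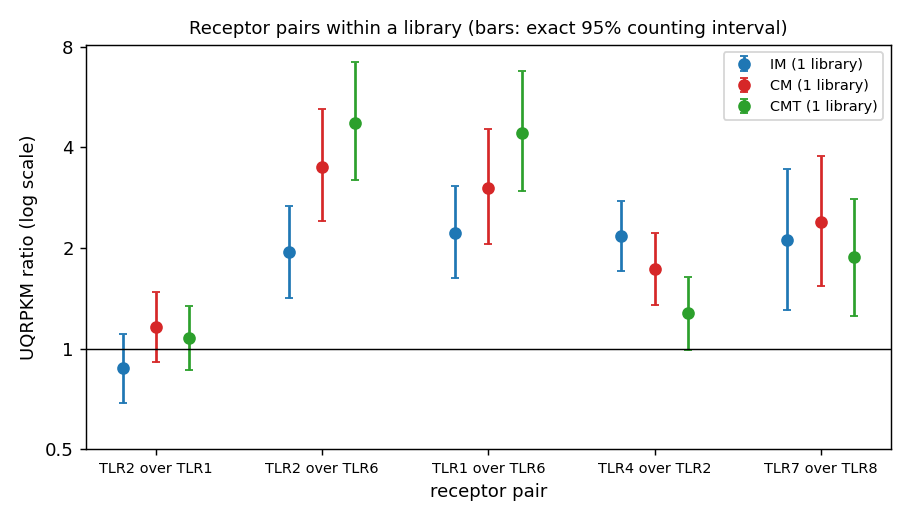
Ratio of the UQRPKM of a pair of receptors within a library on a log scale (y axis) for each pair (x axis) in IM, CM and CMT, with exact 95% counting intervals as bars. TLR2 over TLR6 is 1.94 in IM, 3.51 in CM and 4.74 in CMT, whereas the intervals of TLR2 over TLR1 all include 1.

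TLR4 had 132 (IM), 115 (CM) and 98 reads (CMT), and its levels of 68.7, 62.8 and 52.1 UQRPKM had overlapping intervals. These reads are the fewest that fit, at a recovered length of 1289, the shortest among the receptors. Whether they are too low by a common factor was not tested, and if so the intervals of TLR4 are too wide. The log2 ratio was -0.13 (-0.50 to 0.24) in CM versus IM and -0.27 (-0.67 to 0.13) in CMT versus CM. Between CMT and IM it was -0.40 (-0.79 to -0.01). With the reads doubled, these 3 intervals were -0.39 to 0.13, -0.55 to 0.01 and -0.67 to -0.13. TLR4 over TLR2 was 2.17 (1.70 to 2.77) in IM, 1.74 (1.35 to 2.22) in CM and 1.28 (0.990 to 1.64) in CMT, and the intervals of IM and CMT did not overlap. TLR4 depends on helper proteins that present lipopolysaccharide. LY96, or MD-2, which binds lipopolysaccharide in complex with TLR4, had 97.0 (IM), 149.7 (CM) and 175.2 UQRPKM (CMT) from 87, 128 and 154 reads. It was the lowest in IM, and its log2 ratio was 0.63 (0.22 to 1.04) in CM versus IM and 0.85 (0.46 to 1.25) in CMT versus IM, so LY96 was called higher in both while TLR4 was not called. CD14, which hands lipopolysaccharide to LY96, had 390.0, 394.9 and 338.8 UQRPKM and was not called in any comparison. LBP, the lipopolysaccharide binding protein of plasma, had 2.32 (IM), 32.1 (CM) and 0.791 UQRPKM (CMT) from 6, 79 and 2 reads, with a log2 ratio of 3.79 (2.60 to 5.28) in CM versus IM. LBP is made mainly in the liver, and the CM library also held the liver genes, all 6 of them at their highest there. Their part in the LBP value was not tested. Of the other coreceptors, CD36, a scavenger receptor that works with TLR2, had 4275, 5289 and 4756 UQRPKM and was not called. CD180 did not reach 1 UQRPKM in CM, and LY86 was listed at 0 in all libraries.

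All 4 endosomal receptors were higher in CM than in IM, with log2 ratios from 0.10 to 0.41, and none was called. Over all mRNA genes tested, 43.2% were higher in CM at any fold. In CMT versus CM their log2 ratios lay between 0.04 and 0.40, beside 47.3% of all genes higher in CMT, and between CMT and IM they lay between 0.21 and 0.63, beside 42% of all genes, with TLR8 alone called. All of these directions held under each scaling tried. TLR3, the receptor for double-stranded RNA, had 17.0 (IM), 20.0 (CM) and 20.6 UQRPKM (CMT) from 124, 139 and 147 reads, and its intervals all included 0. TLR7, which senses single-stranded RNA, had 13.4, 17.7 and 18.3 UQRPKM from 38, 48 and 51 reads, with a log2 ratio of 0.41 (-0.24 to 1.06) in CM versus IM. The span of TLR7 in the Sscrofa11.1 table is a whole multiple of its recovered length, so its reads may be too low by that factor. Its log2 ratio of 0.45 between CMT and IM had an interval from -0.18 to 1.10, or from 0.01 to 0.90 with the reads doubled, and whether a difference is detectable thus depends on that factor. TLR7 over TLR8 was 2.12, 2.40 and 1.88, with overlapping intervals. TLR9 had the most reads and the narrowest ratio intervals, but its value may hold reads of the overlapping TWF2. The log2 ratio of TLR9 was 0.10 (-0.06 to 0.26) in CM and 0.21 (0.05 to 0.36) in CMT relative to IM. It was 0.10 (-0.05 to 0.26) in CMT relative to CM. A 1.5-fold difference in this value lay outside each interval, which does not show how TLR9 apart from TWF2 differed.

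The summed level of the endosomal receptors was 0.725 (IM), 0.923 (CM) and 0.938 times (CMT) that of the surface receptors. Without TLR9 these values were 0.206, 0.288 and 0.294. No interval was computed for them, and both sums moved. The endosomal sum was 129.2, 144.4 and 155.3 UQRPKM, and the surface sum was 178.1, 156.5 and 165.5. Of the surface receptors, TLR2 and TLR10 also rose from IM to CM to CMT. TLR4 and TLR6 fell at both steps, and TLR1 and TLR5 were lowest in CM. UNC93B1, the chaperone that carries endosomal receptors out of the endoplasmic reticulum, went the other way from them, with 138.2 (IM), 103.4 (CM) and 99.3 UQRPKM (CMT) from 456, 325 and 321 reads. Its log2 ratios of -0.42 (-0.63 to -0.21) in CM versus IM and -0.48 (-0.69 to -0.27) in CMT versus IM had intervals below 0 but were under 1.5-fold. HSP90B1, the chaperone gp96 that folds most TLRs, had 1051, 1195 and 1393 UQRPKM, and CNPY3, its cofactor, had 262.2, 221.7 and 262.6. Neither was called.

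Downstream of the receptors, counts of called genes are read beside the 18.8%, 19.5% and 20.7% of all mRNA genes called in the 3 comparisons, in the order used above. The adaptors were close to level. MYD88 had 231.8 (IM), 208.3 (CM) and 217.2 UQRPKM (CMT) from 1344, 1151 and 1234 reads, with a log2 ratio of -0.15 (-0.27 to -0.04) between CM and IM. TIRAP, the bridge between TLR2 or TLR4 and MYD88, had 55.1, 58.4 and 52.1 UQRPKM with all intervals including 0, and TICAM2, the bridge from TLR4 to TICAM1, had 33.1, 34.8 and 32.4. None of the 3 adaptors was called, and TICAM1 and SARM1 were not analysed here. Of the 13 kinases and ligases at 1 UQRPKM or more, IKBKE, a kinase of interferon regulatory factors, was called lower in CM than in IM with a log2 ratio of -1.38 (-2.52 to -0.34) from 11 and 30 reads. IKBKE was called higher in CMT than in CM, at 0.89 with an interval from -0.22 to 2.09. MAP3K7, or TAK1, which activates the IkB kinases, was lower in CMT than in IM at -0.70 (-1.21 to -0.20), and the other 11 were not called in any comparison.

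Among 7 transcription factors, IRF7, which drives type I interferon genes below TLR7 and TLR9, was called. It had 113.5 (IM), 121.1 (CM) and 71.5 UQRPKM (CMT) from 293, 298 and 181 reads, so that CMT was low and IM and CM lay together. Its log2 ratio was -0.76 (-1.03 to -0.49) in CMT versus CM and -0.67 (-0.94 to -0.39) in CMT versus IM. None of the 8 inhibitors at 1 UQRPKM or more was called, and they had a median log2 ratio of -0.24 between CM and IM, 0.08 between CMT and CM and -0.14 between CMT and IM. TNFAIP3, or A20, which ends NF-kB signalling, had 68.0, 61.2 and 72.9 UQRPKM.

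Genes that TLR signalling is known to induce moved in both directions in CM versus IM, and most were lower in CMT than in CM or IM. Of 11 target genes at 1 UQRPKM or more in both libraries, 4 were called lower between CM and IM, where 10.4% of all mRNA genes were, and 0 were called higher, where 8.38% were. At any fold 5 of the 11 were higher in CM, beside 43.2% of all mRNA genes. Among them CXCL10, an interferon-induced chemokine, had 180.8 (IM), 269.1 (CM) and 187.6 UQRPKM (CMT), with a log2 ratio of 0.57 (0.33 to 0.82) that stayed under 1.5-fold. Between CMT and CM 2 were called lower and 1 higher, beside backgrounds of 9.97% and 9.53%. These were IL1A, IL10 and IL1B. Each rested on fewer than 100 reads over CMT and CM, a range in which 46.9% of all genes were called. At any fold 3 of the 11 were higher in CMT than in CM and 8 lower, beside 47.3% of all mRNA genes higher. Between CMT and IM 4 were called lower and 0 higher, beside 11.9% and 8.81%. Of these, IL1A and IL10 rested on fewer than 100 reads over CMT and IM, where 47.6% of all genes were called. At any fold 1 of the 11 was higher in CMT than in IM and 10 lower, beside 42% of all mRNA genes higher. TNF, CCL3L1 and IL1A were called lower in both castrated groups than in IM, and IL1A and IL1B rested on fewer than 100 reads, a range in which 46.6% of all genes were called between CM and IM. The median log2 ratios were -0.17, -0.44 and -0.40. TNF, a leading cytokine of macrophages, had 58.0 (IM), 30.01 (CM) and 30.4 UQRPKM (CMT) from 144, 71 and 74 reads. The log2 ratio of TNF was -0.95 (-1.38 to -0.53) in CM versus IM and 0.02 (-0.47 to 0.51) in CMT versus CM. CCL3L1, a chemokine, had the same order with 233.2, 92.4 and 106.9 UQRPKM from 98, 37 and 44 reads. IL1B, an inflammasome-processed cytokine, had 11.95, 2.89 and 9.85 UQRPKM from 26, 6 and 21 reads, so that it was low in CM alone, as TLR5 was. IL1A was called lower in all 3 comparisons, with 37, 21 and 11 reads, and its intervals in CM versus IM and CMT versus CM included 0. IL10, an anti-inflammatory cytokine, was called lower in CMT than in CM at -0.999 (-1.91 to -0.14) and lower than in IM at -0.75 with an interval from -1.68 to 0.13. IL6, IL8, IL12A, IL12B and IFNB1 had at most 3 reads in any library.

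Other innate sensors served as a comparison for the receptors. Of 9 at 1 UQRPKM or more, 1 was called between CM and IM, 3 were called in CMT versus CM, and 2 between CMT and IM. Over all mRNA genes 18.8%, 19.5% and 20.7% were called, and with so few sensors their counts lie near that background. The RNA helicases of the cytosol made up most of those called. DHX58 had 147.3 (IM), 139.4 (CM) and 89.6 UQRPKM (CMT), with a log2 ratio of -0.64 (-0.84 to -0.44) in CMT versus CM and -0.72 (-0.91 to -0.52) in CMT versus IM. DDX58, or RIG-I, was lower in CMT than in CM at -0.60 (-0.84 to -0.35), and IFIH1, or MDA5, was lower in CMT than in IM at -0.66 (-0.89 to -0.43). The endosomal RNA receptors TLR3, TLR7 and TLR8 had their highest values in CMT, where these helicases had their lowest. TLR1, TLR2, TLR9 and TLR10 were also highest in CMT. In CMT versus CM the log2 ratio was 0.04 (-0.30 to 0.39) for TLR3, 0.05 (-0.55 to 0.65) for TLR7 and 0.40 (-0.22 to 1.04) for TLR8. All of these intervals included 0, and TLR8 alone passed 1.5-fold, in CMT versus IM. NLRP3, the inflammasome sensor, was higher in CMT than in CM at 0.72 (0.24 to 1.21). CLEC7A, the receptor for beta-glucans, was called higher in CM than in IM from 22 and 15 reads, with an interval from -0.39 to 1.67.

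**Figure D4:**
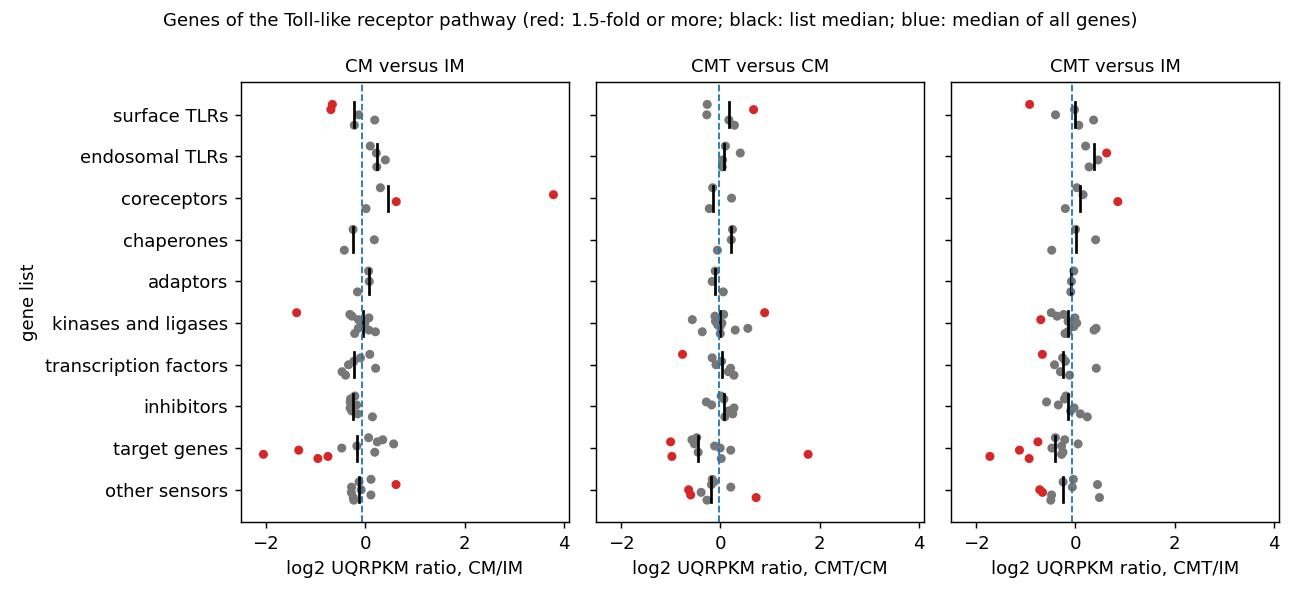
Log2 ratio of UQRPKM between libraries (x axis) for genes of each role in the TLR pathway (y axis), with called genes in red, the median of a list as a black bar and the median of all mRNA genes tested as a dashed blue line. The called target genes lie below 0 in CM versus IM (4 of 11, beside 10.4% of all mRNA genes called lower) and in CMT versus IM (4 of 11, beside 11.9%), while the adaptors lie near 0.

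Levels of TLRs in whole tissue depend on which cells it holds, and fewer cells of a type cannot be told apart from less RNA per cell. The 12 macrophage genes summed to 7627 (IM), 6560 (CM) and 6111 UQRPKM (CMT), most of it from the complement genes C1QA, with 2833, 2100 and 1993 UQRPKM, and C1QC, with 3222, 2618 and 2452. The list as a whole did not follow its sum, as its median level was 108.5, 121.5 and 97.2 UQRPKM. Of the 11 genes at 1 UQRPKM or more, 7 were higher in CM than in IM, with 3 called higher and 0 lower, beside 8.38% and 10.4% of all mRNA genes. In CMT versus CM 0 were called higher and 4 lower, beside 9.53% and 9.97%. The 3 called higher in CM were EMR1, a surface receptor of macrophages, the scavenger receptor MARCO, and LOC100520753, which the study calls CD68. The RefSeq table of the later build lists a gene named CD68, and whether LOC100520753 is that gene was not tested. EMR1 had 45.6 (IM), 93.6 (CM) and 30.6 UQRPKM (CMT), MARCO had 16.8, 37.9 and 10.7, and LOC100520753 had 17.2, 42.9 and 22.2. All 3 were highest in CM, whereas CSF1R, the growth factor receptor of macrophages, had 285.3, 245.5 and 220.6 UQRPKM. CD163 was listed at 0 in all libraries. The 7 neutrophil genes summed to 504, 4884 and 964.5 UQRPKM through S100A8, S100A9 and S100A12. CXCR2 did not follow this sum, with 5.08, 4.69 and 4.35 UQRPKM from 25, 22 and 21 reads. CSF3R was listed at 0 in all libraries, and MPO and ELANE had at most 1 read. The 8 B cell genes summed to 93.3, 79.7 and 101.4 UQRPKM, with FCRLA at 0. The 8 T and NK cell genes summed to 467, 364 and 419 UQRPKM, none of them at 0, and 7 dendritic cell genes to 576, 479 and 559, with CD1A at 0. The sums of the B cell, T and NK cell and dendritic cell genes were lowest in CM, and so were those of the endothelial, fibroblast and skeletal muscle genes. Members did not all follow these sums. In CM versus IM, 3 dendritic cell genes at 1 UQRPKM or more were higher in CM and 3 lower. For the T and NK cell genes these counts were 3 and 5, and for the B cell genes 2 and 4. The part of these cell types in the receptor values was not tested.

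Genes with a pattern most like that of a receptor were sought among the 8541 mRNA genes with at least 100 reads in every library, by the Euclidean distance over the log2 ratios of CM and of CMT to IM, which rest on 3 libraries. For TLR9 they were LOC100038029, PGRMC1 and NOL10, at distances of 0.00355 to 0.00688. For TLR2 they were LOC100739654, RPL21 and ZMYM5, at 0.00646 to 0.0124, and for TLR1 they were BRF2, TET2 and POMT2, at 0.00807 to 0.00989. Within a distance of 0.1 lay 392 genes for TLR9, 201 for TLR2 and 273 for TLR1.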

How the data were processed

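RNA-Seq of the 3 pooled libraries was analysed from processed values. The authors filtered reads for adaptors, ambiguous bases and low quality, mapped them to Sscrofa 10.2 with MapSplice and deposited RPKM values scaled by the upper quartile of each library (UQRPKM). The counting tool, the annotation, the use of strand and the treatment of reads with several positions are not given in the sources used here, and no gene coordinates of that build were used. Libraries were assigned to IM, CM and CMT by their titles.

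Reads were recovered in Python 3.11.15 (scipy 1.17.1). The upper quartiles, read from the commonest ratio of low values between libraries, were 149, 142 and 146, and the shortest length giving whole reads in all libraries was used, with a relative tolerance of 1e-08. Whole reads were found for 100% of 20838 genes above 0. Read numbers with a factor in common come out too low by it, which leaves ratios as they are and makes intervals too wide. The recovery was tested on simulated data.

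Intervals of levels are exact Poisson and those of ratios exact Clopper-Pearson, at 95%. Amplified reads are not independent molecules. Genes were called at 1.5-fold with at least 1 UQRPKM in both libraries, the limits of the study without its test. Named genes are all receptors, the pathway genes called in any comparison with at least 30 reads over its 2 libraries (at most 6 per list), 7 fixed pathway genes (CD14, LY96, MYD88, TIRAP, TICAM1, UNC93B1 and TNFAIP3, with TICAM1 not analysed here), and for each of the 3 receptors with the most reads the 3 genes most like it. The other genes named are examples of their lists. Members and lists (8 of pathway genes, 11 of cell type markers) were chosen with earlier results of these data known. Alternatives were other scalings, a pseudocount of 1, other filters and fold limits, and an exact binomial test on reads, adjusted by Benjamini-Hochberg over all mRNA genes with reads, which compares libraries and not conditions.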

Additional observations from a re-analysis of the deposited data

How the results depend on the processing

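The number of receptors called was 2 between CM and IM, 1 between CMT and CM and 2 between CMT and IM. A fold limit of 2 left 0 receptors in each of the 3 comparisons, where 1139, 1225 and 1162 mRNA genes still passed. With the exact binomial test on reads, 1 receptor was left in CM versus IM (TLR5) and 1 in CMT versus IM (TLR6), and 1432, 1498 and 1691 mRNA genes passed in the 3 comparisons, against 2657, 2749 and 2936 by the fold and level limits. An interval that excludes 0 left 1 receptor (TLR6) in CMT versus IM, as did a pseudocount of 1 UQRPKM, because the call of TLR8 was lost in both. Without a filter on low values, 2 receptors were called in CMT versus CM, since TLR10 was added. Counts under the other settings were within 1.5 times these. Scaling by recovered reads moved the median of all genes in CMT versus IM by 0.11 on the log2 scale. Of the genes called there, 56.2% were higher in CMT, against 42.4% as deposited and 53.0% with the median of ratios. TLR5 in CMT versus IM was the one receptor ratio whose sign turned with scaling, and it was not called. Doubling all reads, an alternative chosen after seeing the data, brought the intervals of TLR3, TLR7 and TLR8 in CMT versus IM and of TLR1 in CMT versus CM off 0. No paired analysis was possible because each group is 1 library, which also leaves no replicate to leave out. Depth limits TLR10, TLR8, TLR7 and TLR6 most.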
